A study of Mus musculus with 60 samples.

Results

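The genes described here are 10 genes of dietary fat and cholesterol absorption: Mttp, Apob, Apoa1, Apoa4, Fabp1, Fabp2, Cd36, Dgat1, Mogat2 and Npc1l1. They were taken by their symbols from a table that lists 55357 genes for the epithelium of the mouse small intestine and colon. All 10 were found once each, and all 10 passed the filter on low counts that left 23360 genes for testing. The genes are grouped by shared function, and the rule that picks them uses no measured value.

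Dietary fat reaches the absorptive cells of the gut, the enterocytes, as free fatty acids and monoglycerides, and dietary cholesterol as free sterol. Fatty acids are taken up at the brush border, carried through the cytosol by small binding proteins, and joined again to glycerides in the endoplasmic reticulum. The microsomal transfer protein loads this fat onto apolipoprotein B, and the particle leaves for the lymph as a chylomicron. Enterocytes arise from Lgr5-expressing stem cells at the crypt base and mature as they move up onto the villus, and fat is absorbed mainly in the upper small intestine.

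Cells came from mice 8 weeks of age with the Lgr5-2A-eGFP allele, in which the green fluorescent protein is made together with Lgr5, the R-spondin receptor of the stem cells. Every group carries that allele and no treatment is named, so the groups differ only in gut part and in GFP fraction. The small intestine was taken as proximal, middle and distal parts of equal length and the colon as proximal and distal parts, and flow sorting on GFP gave a high, an intermediate and a negative fraction of each. This gave 15 groups of 4 libraries of polyA RNA, and the labels do not say whether a library holds cells of 1 animal or of pooled animals. The p-values below therefore measure the spread between libraries, which may be technical in part.

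Total counts ran from 55411864 to 113917959 a library, with a median of 81230235. Lgr5 checked the sort: its level was 145 to 598 CPM (counts scaled to the library's TMM-adjusted total) in the 20 GFP-high libraries and 1.64 to 17.4 CPM in the 20 GFP-negative libraries. The labelled cell type is epithelial, and the sum of 15 enterocyte markers was at least 1500 CPM in every library. The GFP-negative libraries also held more RNA of leukocytes than the GFP-high libraries, with a sum of 10 leukocyte markers of 142 to 1970 CPM against 23.1 to 119 CPM. In bulk RNA, fewer cells of a type and less RNA per cell cannot be told apart.

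Fabp1 and Fabp2, the liver-type and the intestinal-type fatty acid binding proteins, are shown by the 250 bases before their start sites because Fabp1 had the largest decline of the 10 genes along the small intestine and Fabp2 was not called there. The sequences are from RefSeq on GRCm38.p6, 5′ to 3′ on the strand of the gene, and capitals mark the motif matches listed after them. Fabp1 is on the plus strand at chr6:71199629-71199878 and Fabp2 on the plus strand at chr3:122894822-122895071.
Fabp1: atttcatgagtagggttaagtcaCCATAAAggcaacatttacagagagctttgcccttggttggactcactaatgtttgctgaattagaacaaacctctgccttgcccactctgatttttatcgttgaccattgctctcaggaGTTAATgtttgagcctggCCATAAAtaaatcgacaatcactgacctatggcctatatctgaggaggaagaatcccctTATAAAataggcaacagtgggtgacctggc
Fabp2: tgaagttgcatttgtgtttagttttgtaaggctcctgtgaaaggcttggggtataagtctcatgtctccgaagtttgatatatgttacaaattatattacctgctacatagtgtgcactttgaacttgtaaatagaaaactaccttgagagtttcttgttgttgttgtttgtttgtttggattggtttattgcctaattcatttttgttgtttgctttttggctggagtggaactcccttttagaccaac
The search covered 250 bases before to 50 after the start, on both strands, in the 8 of the 10 genes that matched an entry of the RefSeq promoter table by symbol. The HNF4 core was searched as CAAAGTC. The motif of zinc-finger factors such as Gata4 was searched as TGATAA, the CDX motif as TTTATGG, part of the HNF1 site as GTTAAT, and the TATA box by the letters TATAAA. In Fabp1 the CDX motif lies on the other strand with its first base at -227 and at -89 from the start, the HNF1 motif at -107 and the TATA box at -30, and none of these matches overlaps another. The Fabp2 window holds none of the 5 motifs. Apob has a TATA box at -60, Apoa1 has the zinc-finger motif on the other strand at 15, and Npc1l1 has the zinc-finger motif at 6 and the HNF1 motif at -40, both on the other strand. Over all 32851 promoters of the table, the HNF4 core was in 4.44%, the zinc-finger motif in 9.05%, the CDX motif in 2.75%, the HNF1 motif in 7.1% and the TATA box in 13.6%. The HNF4 core was in 0 of the 8 windows, which says only that these letters are not there.

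The absorption genes were transcribed strongly in the small intestine and weakly in the colon. Their summed level was 15666 to 27523 CPM in the GFP-negative libraries of the proximal small intestine, 17256 to 23198 CPM in those of the middle part and 10991 to 13366 CPM in those of the distal part. It was 273 to 441 CPM in GFP-negative cells of the proximal colon and 104 to 132 CPM in those of the distal colon. Of the 10 genes, 5 had their highest mean in GFP-negative cells of the proximal small intestine (Mttp, Apoa4, Fabp1, Cd36 and Mogat2) and 5 in those of the middle part (Apob, Apoa1, Fabp2, Dgat1 and Npc1l1). For 7 genes the GFP-negative groups of the small intestine took the first 3 of the 15 places, and the exceptions were Apoa4, Cd36 and Fabp1, whose GFP-negative group of the distal small intestine came 5, 4 and 7 in order.

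**Figure D1:**
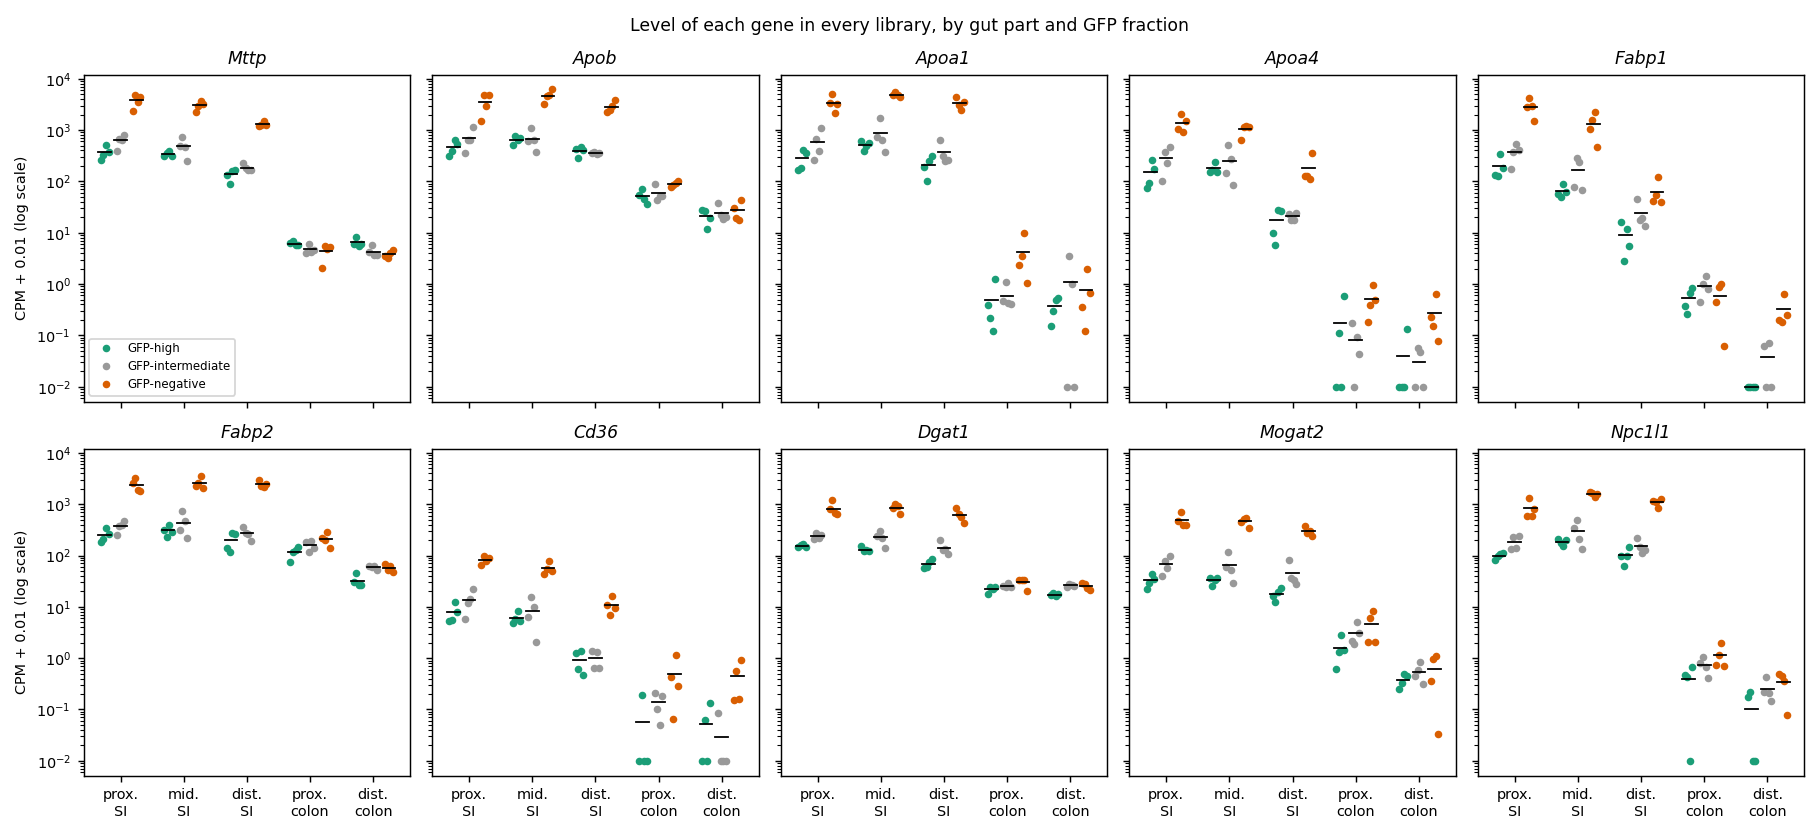
Level of each of the 10 genes in all 60 libraries, in CPM plus 0.01 on a log axis, against gut part. Points are libraries, coloured by GFP fraction, and black lines are group means (n = 4). Within each part of the small intestine the GFP-negative points lie above the GFP-high points for every gene. The colon lies below the small intestine for most of them.

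Levels of different genes are compared per kilobase of transcript (RPKM), in GFP-negative cells of the proximal small intestine, as mean ± SD with n = 4. Fabp1 was the most abundant of the 10 at 5155 ± 1974 RPKM, followed by the chylomicron apolipoprotein Apoa1 at 2774 ± 968 and Fabp2 at 2483 ± 696. Apoa4, another apolipoprotein of the particle, stood at 763 ± 285, and Mttp, the transfer protein subunit that loads fat onto apolipoprotein B, at 613 ± 176. Dgat1 and Mogat2, the acyltransferases that build triglyceride and diglyceride, had 269 ± 84.2 and 268 ± 83.3 RPKM, and Apob had 251 ± 112. The spreads of those 3 overlap, so their order is not settled by these libraries. Npc1l1, the cholesterol transporter of the brush border, had 185 ± 75.4 RPKM, and Cd36, a fatty acid translocase, was the lowest of the 10 at 22.9 ± 3.92. In GFP-negative cells of the distal small intestine the order had changed: Apoa1 (2719 ± 636) and Fabp2 (2534 ± 383 RPKM) were far above Fabp1 at 115 ± 68.7. In those of the proximal colon Fabp2 stood alone at 219 ± 62.3 RPKM, and the other 9 genes had means of 0.132 (Cd36) to 9.80 RPKM (Dgat1).

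The order of the groups for Mttp shows how the levels are spaced. GFP-negative cells of the proximal (2401, 4908, 3526 and 4373 CPM) and middle small intestine (2266, 2900, 3746 and 3177 CPM) overlapped each other. Those of the distal part came next at 1212, 1248, 1515 and 1275 CPM, below both without overlap. The GFP-intermediate cells of the proximal (383 to 807 CPM) and middle part (251 to 726 CPM) and the GFP-high cells of the same parts (261 to 501 and 308 to 388 CPM) all overlapped their neighbours in the order. The distal GFP-intermediate (165 to 226 CPM) and GFP-high cells (90.4 to 167 CPM) overlapped narrowly, and all 6 colonic groups lay together at 2.05 to 8.09 CPM.

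Sorting by Lgr5 level was compared first: GFP-high cells, enriched for stem cells, against GFP-negative cells of the same gut part. In each part of the small intestine all 10 genes were lower in GFP-high cells (edgeR's quasi-likelihood test, adjusted p below 0.05), where 24.6% of all tested genes were called lower in the proximal, 25.6% in the middle and 26.2% in the distal part. The median log2 difference of the 10 was -3.31, -3.12 and -3.40 in that order, beside 0, -0.04 and -0.01 over all genes tested. These 30 calls held in every alternative tried, and no alternative moved a value by more than 1.49 times.

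Among the genes of uptake, Cd36 had 64.8, 95.9, 76.8 and 90.9 CPM in GFP-negative cells of the proximal small intestine and 5.22, 5.63, 12.6 and 7.91 CPM in GFP-high cells. The 2 sets do not overlap, and the log2 difference was -3.39 ± 0.61 (SE, adjusted p = 5.71e-06). Npc1l1 had 591, 1304, 589 and 818 CPM without GFP against 80.5, 96.2, 107 and 111 CPM with high GFP. Its GFP-negative libraries, with replicate 2 well above the others, were all above the GFP-high ones, and the log2 difference was -3.06 ± 0.42 (adjusted p = 2.86e-08). In the middle and distal parts the log2 differences were -3.22 and -3.54 for Cd36 and -3.10 and -3.43 for Npc1l1.

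The binding proteins fell by similar amounts in the proximal part. Fabp1 had 2810, 4175, 2913 and 1504 CPM without GFP against 131, 128, 347 and 182 CPM with high GFP, a log2 difference of -3.86 ± 0.57 (adjusted p = 1.5e-07). Fabp2 had 2568, 3273, 1907 and 1834 CPM against 186, 211, 341 and 267 CPM, a log2 difference of -3.25 ± 0.30 (adjusted p = 5.85e-13). Neither gene's fractions overlapped. Fabp1 had its largest difference in the middle part, at -4.38 ± 0.58, and its smallest in the distal part, at -2.82 ± 0.55.

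The glyceride-building enzymes differed in size from each other. Mogat2 had 463, 715, 401 and 385 CPM without GFP against 22.7, 28.5, 44.4 and 35.2 CPM with high GFP of the proximal small intestine, which do not overlap (log2 difference -3.91 ± 0.48, adjusted p = 1.36e-09). Dgat1, which adds the last fatty acid to triglyceride, had 801, 1193, 662 and 635 CPM against 149, 159, 169 and 147 CPM. Its log2 difference of -2.40 ± 0.20 (adjusted p = 1.42e-14) was the smallest of the 10 genes in that part, and it kept a mean of 156 ± 10.3 CPM in GFP-high cells. In the distal part Mogat2 had -4.07 and Dgat1 -3.17.

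The genes of the particle itself fell as well. Mttp had 261, 330, 501 and 377 CPM in GFP-high cells of the proximal part, every library below the GFP-negative ones given above. Apob had 1531, 4765, 2950 and 4739 CPM without GFP against 315, 391, 628 and 531 CPM with high GFP, which do not overlap although GFP-negative replicate 1 is low (log2 difference -2.91 ± 0.34, adjusted p = 3.43e-10). Apoa1 had 3367, 5027, 2135 and 3187 CPM against 165, 181, 416 and 363 CPM, a log2 difference of -3.61 ± 0.71 (adjusted p = 2.79e-05). Apoa4 had 1069, 2066, 908 and 1498 CPM against 75.7, 92.1, 263 and 176 CPM, a log2 difference of -3.19 ± 0.59 (adjusted p = 8.74e-06). For both apolipoproteins the libraries of the fractions stand apart without overlap. In the middle and distal parts the log2 differences were -3.14 and -3.26 for Mttp, -2.86 and -2.84 for Apob, -3.23 and -3.99 for Apoa1, and -2.53 and -3.37 for Apoa4.

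**Figure D2:**
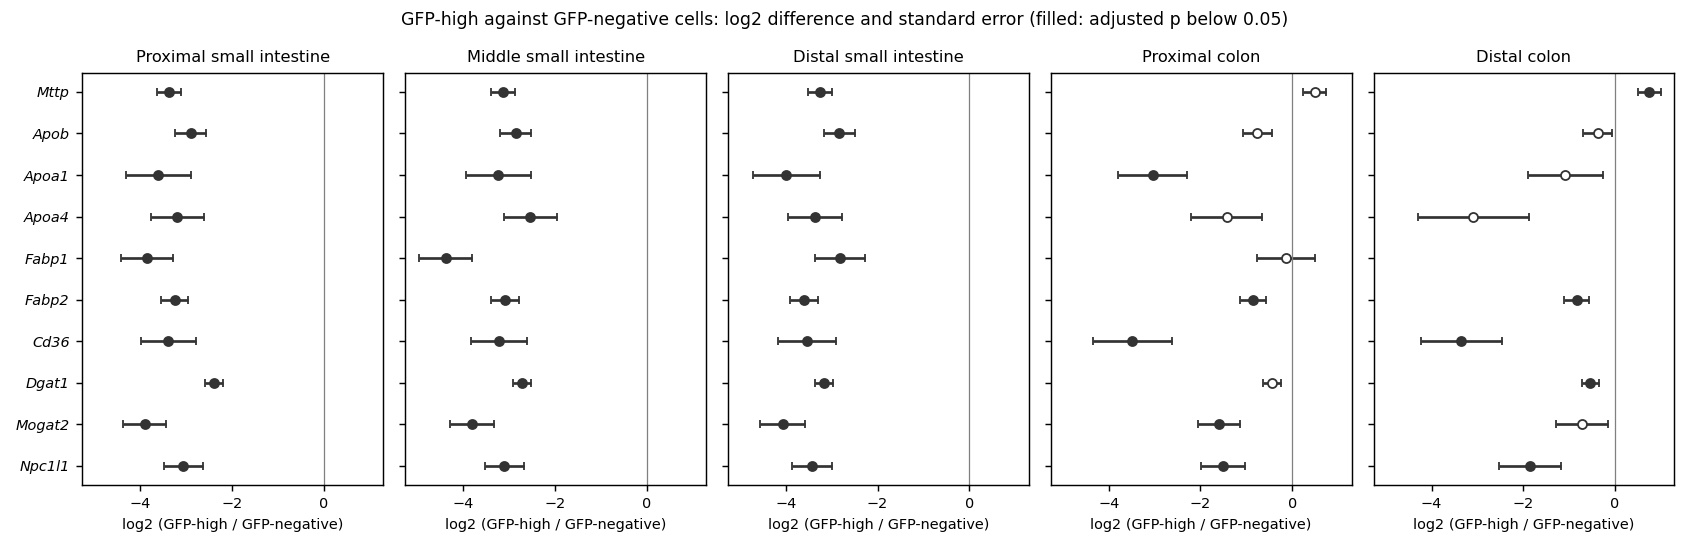
Log2 difference of GFP-high against GFP-negative cells for the 10 genes in each gut part, with standard errors (n = 4 libraries a side; filled points have an adjusted p below 0.05). All points of the small intestine lie between -4.38 and -2.40, and those of the colon spread from -3.49 to 0.75. Fabp1 in the distal colon is left out because its GFP-high libraries have no count.

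Markers of whole cell types also differed between the fractions, some in the direction of these genes and some in the opposite direction. Of the 15 enterocyte markers, 14, 15 and 15 were called lower with high GFP, by part from proximal to distal, with medians of -3.52, -3.16 and -3.56. All 7 goblet markers were called lower in each part, with sums in the proximal part of 33300 to 49900 CPM without GFP and 2580 to 3410 CPM with high GFP, and 8, 7 and 8 of 8 enteroendocrine markers (475 to 1140 against 116 to 240 CPM). All 7 Paneth cell markers were called higher in each part (708 to 1410 against 7510 to 14500 CPM), as were all 6 tuft cell markers. Stromal markers summed to 11.7 to 46.6 against 3.83 to 5.96 CPM in the proximal part, with 1, 2 and 1 of 6 called lower. Of the 10 leukocyte markers, 10, 9 and 10 were called lower, and none was at 0 in all libraries of any group. Their sum was 254 to 1970 CPM in GFP-negative against 66.9 to 105 CPM in GFP-high cells of the proximal part, 248 to 980 against 82.4 to 119 in the middle and 392 to 1590 against 67.8 to 99.9 in the distal part. The part of these cells in the differences was not tested. Of the 6 adipocyte markers, which bear on Cd36 and Dgat1, only Plin4 passed the filter on low counts. Plin4 had at most 0.726 CPM in any library, and 3 to 5 of the 6 were at 0 in all libraries of a group.

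The GFP-intermediate fraction places the step between these ends. Over the small intestine, with 12 libraries a side, all 10 genes were lower in GFP-intermediate than in GFP-negative cells, where 30.5% of all genes were called lower. The median log2 difference of the 10 was -2.70 (all genes -0.01), from -1.94 ± 0.11 for Dgat1 to -2.93 ± 0.35 for Cd36, and the 10 calls held in all alternatives. Between GFP-high and GFP-intermediate cells the differences were smaller, with a median of -0.65 (all genes 0), and 6 genes were called lower in GFP-high cells beside 13.4% of all genes. These were Fabp1 (-1.24 ± 0.30, adjusted p = 0.00151), Mogat2 (-1.13 ± 0.25, 0.000606), Dgat1 (-0.82 ± 0.11, 2.18e-07), Npc1l1 (-0.73 ± 0.23, 0.0149), Mttp (-0.57 ± 0.14, 0.00185) and Fabp2 (-0.51 ± 0.16, 0.0159). Apob (-0.15 ± 0.18, adjusted p = 0.632), Cd36 (-0.45 ± 0.33, 0.376), Apoa4 (-0.57 ± 0.31, 0.199) and Apoa1 (-0.88 ± 0.37, 0.0784) were not called. Dgat1 is the only gene of the 6 called under every alternative: without replicate 2 of every group it was the only gene called, and without GFP-intermediate replicate 2 of the middle small intestine alone Fabp2 (-0.38, adjusted p = 0.0762) and Npc1l1 (-0.61, adjusted p = 0.0504) were not called. Both steps use the same GFP-intermediate libraries.

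In the colon the difference between fractions was nearer to or above 0 for 6 of the 10 genes, as tested below. Mttp lay above 0 in both parts and was called only in the distal colon. Mttp had 6.08, 8.09, 5.58 and 6.04 CPM in GFP-high and 3.56, 3.25, 3.94 and 4.58 CPM in GFP-negative cells of the distal colon. The GFP-high libraries were all higher, with a log2 difference of 0.75 ± 0.25 (adjusted p = 0.0214). In the proximal colon Mttp had 6.42, 6.81, 5.66 and 5.71 CPM against 2.05, 5.40, 4.78 and 5.27 CPM, also without overlap, but the log2 difference of 0.49 ± 0.25 was not called (adjusted p = 0.147). In the distal colon 1 gene was called higher (11.2% of all genes) and 5 lower (13.9% of all genes), with a median of -0.96 beside -0.03 over all genes, which is the same with Fabp1 set at its bound. In the proximal colon 5 genes were called lower (14% of all genes) and 0 higher (11.3% of all genes), with a median of -1.14 beside -0.04. DESeq2 called 7 of the 10 in each part, those of edgeR with Apob and Dgat1 added in the proximal and Apoa4 in the distal colon. The shares of all genes in this paragraph are edgeR's, and DESeq2's are not given here.

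Fabp2 was the absorption gene with the highest level in the colon. It had 218, 198, 288 and 142 CPM without GFP against 74.1, 117, 131 and 148 CPM with high GFP of the proximal colon, where the lowest GFP-negative library lies below the highest GFP-high library (log2 difference -0.85 ± 0.28, adjusted p = 0.0197). In the distal colon it had 68.3, 51.4, 63.7 and 46.8 CPM against 30.5, 44.9, 26.1 and 27.2 CPM, without overlap (-0.84 ± 0.28, adjusted p = 0.022). Dgat1 had 28.5, 27.6, 23.7 and 20.9 CPM against 17.3, 18.3, 16 and 17.8 CPM in the distal colon, again without overlap (-0.53 ± 0.19, adjusted p = 0.0324). In the proximal colon edgeR did not call Dgat1 (-0.44 ± 0.19, adjusted p = 0.0813), whereas DESeq2 did (-0.50, adjusted p = 0.0404). Apob, at 21.3 to 88.3 CPM in the means of the 6 colonic groups, was called in neither part by edgeR (-0.76 ± 0.32, adjusted p = 0.0707, and -0.38 ± 0.32, adjusted p = 0.42), and in the proximal colon by DESeq2 (-0.82, adjusted p = 0.0373).

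The remaining 6 genes had low levels in the colon, with group means of at most 4.64 CPM. Cd36 was lower in GFP-high cells of both parts, with log2 differences of -3.49 ± 0.86 (adjusted p = 0.00169) and -3.35 ± 0.88 (adjusted p = 0.00344). Its counts were 32, 4, 98 and 22 in GFP-negative and 0, 16, 0 and 0 in GFP-high libraries of the proximal colon, and 12, 50, 13 and 82 against 0, 4, 0 and 10 in the distal colon. Fabp1 had 16, 16, 56 and 21 counts in GFP-negative and 0 counts in all 4 GFP-high libraries of the distal colon (adjusted p = 0.00242). Against a floor of 3 counts a library, it was at least 8.66-fold higher in the GFP-negative cells, and at least 5.58-fold without GFP-negative replicate 3. In the proximal colon Fabp1 had -0.13 ± 0.64 (adjusted p = 0.93). Npc1l1 was called lower in GFP-high cells of both parts (-1.51 ± 0.48, adjusted p = 0.0164, and -1.85 ± 0.69, adjusted p = 0.04), with GFP-high means of 0.386 and 0.0936 CPM. Mogat2 and Apoa1 were called lower in the proximal colon (-1.59 ± 0.46, adjusted p = 0.0079, and -3.05 ± 0.75, adjusted p = 0.00176) and not in the distal colon (-0.72 ± 0.57, adjusted p = 0.384, and -1.08 ± 0.82, adjusted p = 0.363). Apoa4 was called in neither by edgeR (-1.42 ± 0.77, adjusted p = 0.183, and -3.09 ± 1.21, adjusted p = 0.0531), and in the distal colon by DESeq2 (-3.19, adjusted p = 0.007).

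Markers of cell types also moved between the colonic fractions, some up and some down. The 15 enterocyte markers summed to 2010 to 2410 CPM without GFP against 1650 to 1990 CPM with high GFP of the proximal colon. In the distal colon their sums were 1500 to 1700 against 1560 to 1740 CPM. There Mme (3.44), Treh (1.31) and Clca4b (1.29) were called higher with high GFP, Vil1 (-0.40) and Krt20 (-1.72) lower, and no other marker of that list was called. Of 8 enteroendocrine markers 8 and 6 were called lower in GFP-high cells of the proximal and distal colon, with sums of 3830 to 11400 against 107 to 366 CPM and 412 to 841 against 94.6 to 113 CPM. Of 6 colonocyte markers 3 and 2 were called lower (6830 to 7100 against 1870 to 4630 CPM and 567 to 798 against 180 to 611 CPM), and of 7 goblet markers 4 and 4 (17900 to 38600 against 12400 to 31300 CPM and 37200 to 58200 against 17100 to 21600 CPM). All 10 leukocyte markers were called lower in GFP-high cells of both parts, with sums of 162 to 1240 CPM against 23.1 to 34.1 CPM in the proximal and 142 to 430 against 25.2 to 34.4 CPM in the distal colon. Of the 8 endothelial markers, of a cell type that makes Cd36, 7 passed the filter on low counts. These 7 summed to 6.69 to 14.3 CPM in GFP-negative and 3.38 to 6.87 CPM in GFP-high cells of the proximal colon. In the distal colon their sums were 6.49 to 13.5 against 3.25 to 5.48 CPM. The endothelial cadherin Cdh5 was at 0 in all 4 GFP-high libraries of the distal colon, and so was the macrophage gene Adgre1. The 8 macrophage markers summed to 35.3 to 48.8 against 34.4 to 46 CPM in the proximal and 68.0 to 77.2 against 50.1 to 63.2 CPM in the distal colon. Of those 8 markers, 4 in the proximal and 5 in the distal colon were called lower in GFP-high cells, the receptor Csf1r at -6.50 ± 1.06 and -5.13 ± 0.97 among them, whereas Cd68 (0.04 ± 0.31 and 0.07 ± 0.31) was called in neither. The 6 platelet and erythroid markers summed to 1.47 to 8.88 against 0 to 2.37 CPM and to 1.80 to 2.80 against 1.15 to 1.82 CPM. The 6 tuft cell markers summed to 98.6 to 174 CPM without GFP against 156 to 270 CPM with high GFP in the proximal colon. In the distal colon the tuft sums were 198 to 278 against 51.1 to 68.7 CPM. The part of these cells in the colonic differences was not tested.

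Single libraries decide several colonic calls. In the proximal colon, Fabp2 was not called without GFP-high replicate 1 (-0.68) or GFP-negative replicate 3 (-0.67), Mogat2 without GFP-negative replicate 3 (-1.14), and Npc1l1 without GFP-high replicate 3 (-1.12) or GFP-negative replicate 3 (-1.10). Leaving out GFP-negative replicate 3 moved Apoa1 to -2.18 and Cd36 to -2.58, both still called, and leaving out GFP-high replicate 4 moved Apoa1 to -4.13 and brought Apoa4 past the threshold (-3.86). Leaving out GFP-high replicate 2 there leaves Cd36 with no count in that fraction, and without replicate 3 of every group neither Apoa1 (-1.85) nor Cd36 (-2.16) was called. Apob was called without GFP-high replicate 2 (-0.94) and Dgat1 without GFP-negative replicate 4 (-0.59). In the distal colon, Mttp was not called without GFP-high replicate 2 (0.62) or GFP-negative replicate 1 (0.72) or 2 (0.68). Fabp2 was not called without GFP-high replicate 1 (-0.81), 3 (-0.75) or 4 (-0.77) or GFP-negative replicate 1 (-0.75) or 3 (-0.79). Dgat1 was not called without GFP-high replicate 1 (-0.53), 3 (-0.50) or 4 (-0.55) or GFP-negative replicate 1 (-0.47) or 2 (-0.49). Npc1l1 was not called without GFP-high replicate 3 (-1.41) or 4 (-1.45) or GFP-negative replicate 1 (-1.64), 2 (-1.68) or 3 (-1.83), and moved to -2.57 without GFP-high replicate 2. Fabp1 was still called without GFP-negative replicate 3 (adjusted p = 0.0157). Cd36 moved to -4.66 without GFP-high replicate 4 and to -2.70 without GFP-negative replicate 4, and stayed called. Apoa4, with 0, 0, 0 and 10 counts in the GFP-high libraries, was called without GFP-negative replicate 4 (-3.41) or without its only GFP-high library with a count, and with replicate number blocked (-3.12, adjusted p = 0.045).

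Over the colon, 2 genes were lower in GFP-high than in GFP-intermediate cells, Fabp2 (-0.66 ± 0.20, adjusted p = 0.0235) and Dgat1 (-0.41 ± 0.13, adjusted p = 0.0371), where 7.2% of all genes were called lower. Mttp had 0.48 ± 0.18 (adjusted p = 0.0595), and 0.49 (adjusted p = 0.0388) with replicate number blocked. The 10 genes had a median of -0.54 beside 0 over all genes. Dgat1 was not called without any 1 of 9 libraries (-0.42 to -0.37), and neither was called without GFP-high replicate 3 of the distal colon or GFP-high replicate 1 of the proximal colon. Between GFP-intermediate and GFP-negative cells 2 genes were called lower, Apoa4 (-3.18 ± 0.80, adjusted p = 0.00189) and Cd36 (-3.18 ± 0.63, adjusted p = 0.000106), beside 12.2% of all genes (DESeq2 added Fabp1, -1.47, adjusted p = 0.012), and the median of the 10 was -0.47 (all genes -0.01). Without GFP-intermediate replicate 1 of the distal colon Cd36 was at -5.04, and without GFP-intermediate replicate 2 there Apoa1 was called as well (-2.02).

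The difference between the organs was tested directly, as the GFP-high to GFP-negative difference of the colon minus that of the small intestine. It was higher, that is nearer to or above 0 in the colon, for 6 of the 10 genes: Mttp (3.88 ± 0.23, adjusted p = 4.96e-19), Mogat2 (2.77 ± 0.45, 1.6e-06), Fabp2 (2.47 ± 0.26, 3.77e-11), Apob (2.30 ± 0.29, 7.12e-09), Dgat1 (2.27 ± 0.18, 3.7e-15) and Npc1l1 (1.52 ± 0.52, 0.019). Over all genes 14.5% were called higher in this comparison, and the median was 1.91 for the 10 genes and -0.07 for all. Apoa1 (1.55 ± 0.67, adjusted p = 0.0718), Apoa4 (0.78 ± 0.99, 0.644), Cd36 (-0.04, 1) and Fabp1 (-0.20, 0.857) were not called. Fabp1 enters with a group that has no count, so its value depends on the prior count, and no standard error is given for it or for Cd36, because one derived from F is too small where F is near 0 and counts are few. Npc1l1 was not called without GFP-high replicate 1 (1.28) or 2 (1.16) of the distal colon or GFP-high replicate 4 of the proximal colon (1.31), and Apoa1 was called without GFP-negative replicate 3 of the distal (2.07) or proximal colon (1.98) or GFP-high replicate 3 of the proximal colon (1.70). All 15 enterocyte markers were called higher in the same comparison, with a median of 2.53.

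Along the small intestine some absorption genes declined, and for the others a decline was not called. In GFP-negative cells 4 of the 10 were lower in the distal than in the proximal part, where 8.9% of all genes were called lower, with a median of -0.57 for the 10 and -0.03 for all. Fabp1 had 40.6, 53.4, 120 and 39.9 CPM in the distal part against 2810, 4175, 2913 and 1504 CPM in the proximal part. The sets are far apart, with a log2 difference of -5.49 ± 0.62 (adjusted p = 1.46e-09). Apoa4 had 130, 125, 112 and 361 CPM against 1069, 2066, 908 and 1498 CPM, also without overlap (-2.93 ± 0.58, adjusted p = 0.000154). Cd36 had 11, 6.79, 16.1 and 9.38 CPM against 64.8 to 95.9 CPM (-2.92 ± 0.59, adjusted p = 0.000231). Mttp, with the values given above, had -1.53 ± 0.25 (adjusted p = 4.1e-06).

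The other 6 genes were not called. Fabp2 had 2963, 2264, 2115 and 2438 CPM in the distal part, within the range of its proximal libraries, and a log2 difference of 0.03 ± 0.28 (adjusted p = 0.986). Apoa1 had 4383, 3102, 2505 and 3455 CPM, also within its proximal range (-0.03 ± 0.64, adjusted p = 1). The values were 0.39 ± 0.39 for Npc1l1, -0.30 ± 0.31 for Apob, -0.42 ± 0.19 for Dgat1 and -0.72 ± 0.43 for Mogat2, with adjusted p of 0.132 to 0.613. Dgat1 had an unadjusted p below 0.05, and without GFP-negative replicate 1 of the distal small intestine it was called (-0.59, adjusted p = 0.0378).

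The drops that were called lay between the middle and the distal part. In GFP-negative cells Fabp1 (-4.39 ± 0.58, adjusted p = 4.45e-07), Apoa4 (-2.51 ± 0.57, 0.00253), Cd36 (-2.38 ± 0.58, 0.00533) and Mttp (-1.20 ± 0.24, 0.000643) were lower in the distal than in the middle part, beside 3.8% of all genes. The median of the 10 was -0.67 (all genes -0.04), and DESeq2's Wald test called 3 of the 4, without Apoa4 (-2.45, adjusted p = 0.0521). Without GFP-negative replicate 1 of the distal part, Dgat1 was called too (-0.65, adjusted p = 0.0402). Between middle and proximal small intestine 0 of the 10 genes were called by edgeR, where 2.23% of all genes were called either way. Fabp1 (-1.10 ± 0.51) and Npc1l1 (0.94 ± 0.40) had an unadjusted p below 0.05 there, 2 genes in all, and DESeq2 called 0. The medians were -0.02 for the 10 and 0 for all genes.

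GFP-high cells, although low in these transcripts, showed a decline in the same parts of the gut. Fabp1 had 15.8, 2.78, 11.7 and 5.46 CPM in the distal against 128 to 347 CPM in the proximal part (-4.46 ± 0.59, adjusted p = 1.49e-07), and Apoa4 had 10, 5.72, 27.9 and 26.9 CPM against 75.7 to 263 CPM (-3.11 ± 0.59, adjusted p = 0.000125). Neither gene's parts overlapped, and Fabp1 was at -5.06 without replicate 1 of every group. Cd36 (-3.07 ± 0.62, adjusted p = 0.000312), Mttp (-1.42 ± 0.25, 2.91e-05) and Dgat1 (-1.19 ± 0.19, 7.73e-06) were lower as well, which makes 5 of 10 beside 5.42% of all genes, with medians of -1.04 and 0. Dgat1 had 56.2, 59.4, 73.8 and 83.9 CPM in the distal and 147 to 169 CPM in the proximal GFP-high libraries. Mogat2 had an unadjusted p below 0.05 in that comparison and was not called. Between distal and middle small intestine the same 5 genes were called lower in GFP-high cells: Apoa4 (-3.34 ± 0.59), Fabp1 (-2.83 ± 0.55), Cd36 (-2.70 ± 0.61), Mttp (-1.32 ± 0.24) and Dgat1 (-0.93 ± 0.19), beside 0.715% of all genes, with medians of -1.11 for the 10 and 0 for all. Between middle and proximal part 0 were called by edgeR and by DESeq2 (1.99% of all genes either way), and 2, Fabp1 (-1.62 ± 0.52) and Npc1l1 (0.90 ± 0.40), had an unadjusted p below 0.05. Fabp1 was called there with replicate number blocked (-1.56, adjusted p = 0.0451). Its GFP-high libraries had 48.7 to 87.5 CPM in the middle part, below all those of the proximal part (128 to 347 CPM). For Fabp1 a drop before the middle part is therefore not excluded by the missing call.

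**Figure D3:**
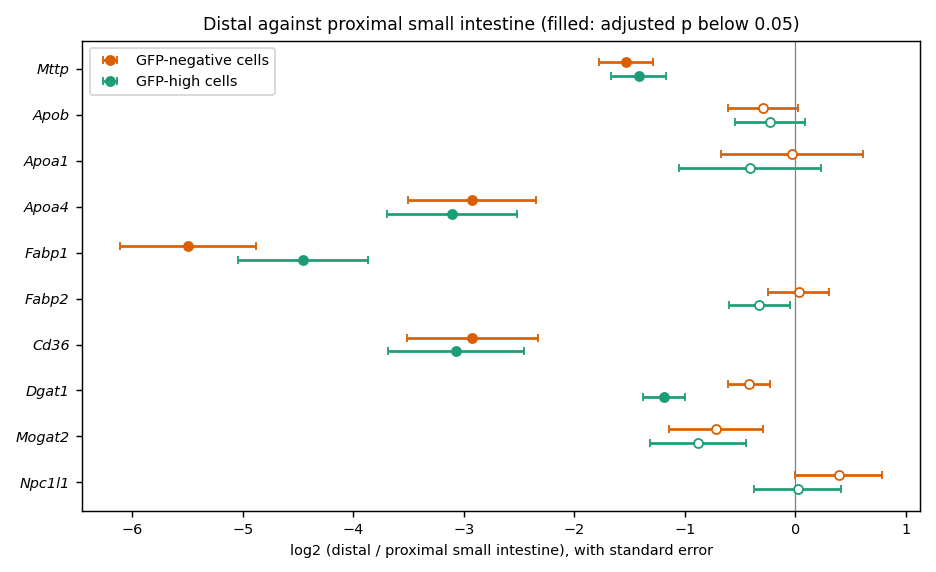
Log2 difference of distal against proximal small intestine for the 10 genes, in GFP-negative and in GFP-high cells, with standard errors (n = 4 libraries a side; filled points have an adjusted p below 0.05). Fabp1, Apoa4, Cd36 and Mttp lie between -5.49 and -1.42 in both fractions, and Fabp2, Apoa1, Apob and Npc1l1 lie between -0.41 and 0.39. Dgat1 and Mogat2 lie between these sets, and of their points only that of Dgat1 in GFP-high cells was called.

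Whether the fractions differ in this decline was tested as the GFP-high to GFP-negative difference of the distal minus that of the proximal small intestine. None of the 10 was called by edgeR or by DESeq2, where 3.54% of all genes were called either way, and 1 gene, Dgat1 (-0.77 ± 0.27, adjusted p = 0.0919), had an unadjusted p below 0.05. The median was -0.17 for the 10 and 0.04 for all genes. Dgat1 was called without GFP-negative replicate 4 of the distal (-0.90) or replicate 2 of the proximal small intestine (-1.01). Of the leukocyte markers, 0 of 10 were called between distal and proximal small intestine in GFP-negative cells, and of the enterocyte markers 5 of 15 were called lower and 1 higher.

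From the distal small intestine to the proximal colon all 10 genes fell in both fractions. In GFP-negative cells the log2 differences ran from -3.53 ± 0.31 (Fabp2) to -9.90 ± 0.58 (Npc1l1), with a median of -6.38 beside 0.11 over all genes, of which 14.7% were called lower. Npc1l1 went from 1152, 1088, 851 and 1242 CPM to 0.718, 1.15, 1.94 and 0.695 CPM, and Apoa1 from 2505 to 4383 CPM to 2.37, 3.56, 9.84 and 1.06 CPM (-9.64 ± 0.93). Mttp changed by -8.23 ± 0.33, Apoa4 by -8.50 ± 0.77, Fabp1 by -6.75 ± 0.68, Mogat2 by -6.00 ± 0.53, Apob by -5.01 ± 0.37, Cd36 by -4.49 ± 0.66 and Dgat1 by -4.36 ± 0.22. In GFP-high cells the range was from -0.77 ± 0.28 (Fabp2, adjusted p = 0.0369) to -8.69 ± 0.92 (Apoa1), with a median of -4.25 beside 0, and 11.7% of all genes were called lower. The Fabp2 call in GFP-high cells was lost without replicate 1 (-0.60) or 2 (-0.77) of the proximal colon or replicate 3 (-0.57) or 4 (-0.60) of the distal small intestine. Without GFP-negative replicate 3 of the proximal colon Apoa1 was at -10.50 and Cd36 at -5.39 in GFP-negative cells, and without GFP-high replicate 4 there Apoa1 was at -9.78 and Apoa4 at -8.99 in GFP-high cells.

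Within the colon 5 genes were lower in the distal than in the proximal part in GFP-negative cells, beside 7.17% of all genes, with a median of -1.29 (all genes -0.02). They were Mogat2 (-2.93 ± 0.50, adjusted p = 1.91e-05), Fabp2 (-1.88 ± 0.29, 2e-06), Apob (-1.67 ± 0.32, 0.000139), Npc1l1 (-1.77 ± 0.50, 0.0113) and Apoa1 (-2.46 ± 0.73, 0.0168). Fabp2 had 68.3, 51.4, 63.7 and 46.8 CPM against 218, 198, 288 and 142 CPM, and Apob had 29.7, 19.6, 17.9 and 43.5 CPM against 76.4, 83.2, 92.5 and 101 CPM, both without overlap. Apoa1 was not called without GFP-negative replicate 3 of the proximal colon (-1.60) or replicate 1 (-2.22) or 2 (-2.09) of the distal colon, and was at -3.50 without replicate 3 of the distal colon. Npc1l1 was not called without replicate 3 of the proximal (-1.37) or 4 of the distal colon (-1.43).

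In GFP-high cells of the colon 5 genes were again lower in the distal part, beside 4.05% of all genes. They were Fabp2 (-1.87 ± 0.29, adjusted p = 3.17e-06), Apob (-1.29 ± 0.32, 0.00498), Mogat2 (-2.06 ± 0.53, 0.00764), Npc1l1 (-2.12 ± 0.66, 0.0347) and Fabp1 (adjusted p = 0.000499). Fabp1 was at least 14.7-fold higher in the proximal colon against the floor of 3 counts a library. The median was -1.58 for the 10 genes, with Fabp1 at its bound or not, and 0 for all. Mogat2 was not called without GFP-high replicate 3 of the proximal colon (-1.59). Npc1l1 was not called without GFP-high replicate 3 (-1.67) or 4 (-1.71) of the distal or 1 (-2.03), 2 (-2.10) or 4 (-1.70) of the proximal colon, and was at -2.83 without replicate 2 of the distal colon. Mttp had 0.07 ± 0.25 there and Dgat1 -0.35 ± 0.19, neither called.

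Ratios within a library compare genes of shared function without regard to depth or scaling. Each is the log2 of the ratio of 2 counts with 0.5 added to each. The 20 comparisons used an exact two-sided permutation test. Its smallest p with 4 libraries against 4 is 0.0286, which Benjamini-Hochberg adjusted to 0.0476 here. That adjusted value depends on how many of the 20 comparisons reach 0.0286, so the ratios at 0.0476 pass the threshold only together. Fabp1 to Fabp2 was 0.20 ± 0.38 (SD, n = 4) in GFP-negative cells of the proximal small intestine, -1.15 ± 0.66 in the middle and -5.42 ± 0.91 in the distal part. The libraries of the proximal part (-0.29 to 0.61) and of the distal part (-6.19 to -4.14) do not overlap, and the difference was -5.62 (adjusted exact p = 0.0476). In GFP-high cells the ratio was -0.44 ± 0.32 and -4.67 ± 1.13 in the proximal and distal part, a difference of -4.24 at the same p.

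Apoa4 to Apoa1, apolipoproteins both encoded on chromosome 9, went from -1.32 ± 0.24 in GFP-negative cells of the proximal small intestine to -4.36 ± 0.78 in those of the distal part. The difference of -3.05 and that of GFP-high cells, -2.81, both reached the smallest p. Mttp to Apob, the loading protein and its substrate, went from 0.21 ± 0.33 to -1.09 ± 0.32 in GFP-negative cells (-1.30) and from -0.33 ± 0.11 to -1.55 ± 0.19 in GFP-high cells (-1.21), again without overlap and at the smallest p.

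Mogat2 to Dgat1 differed by fraction in each part. It was -0.74 ± 0.03 in GFP-negative and -2.30 ± 0.37 in GFP-high cells of the proximal part, -0.89 ± 0.08 and -1.99 ± 0.20 in the middle, and -1.03 ± 0.14 and -1.97 ± 0.22 in the distal part. The differences of -1.55, -1.10 and -0.94 all reached the smallest p. Fabp1 to Fabp2 was lower in GFP-high cells of the middle part (-1.13), and Mttp to Apob in those of the proximal part (-0.54), at that same p. Mogat2 to Dgat1 was also 0.29 lower on the log2 scale in the distal than in the proximal part of GFP-negative cells. In all, 12 of the 20 comparisons had an adjusted p of 0.0476, and the other 8 had 0.0762 to 0.371.

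**Figure D4:**
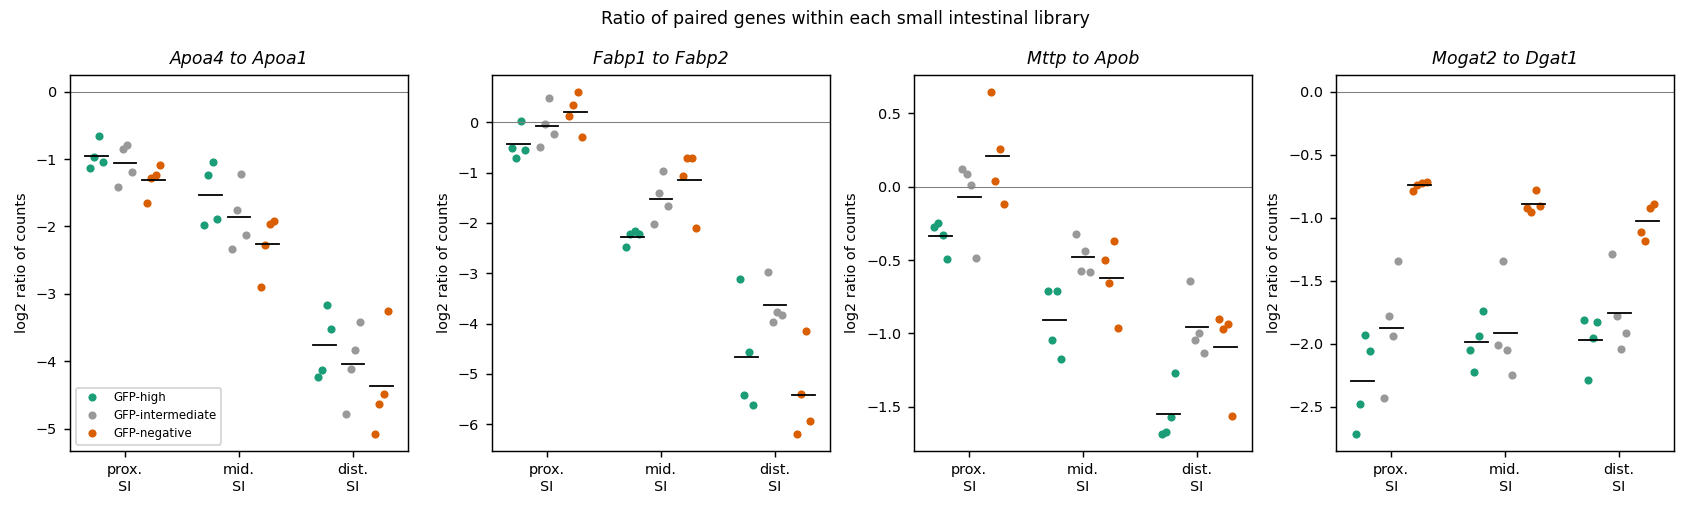
Log2 ratio of 2 genes within each library of the small intestine, against gut part, with points coloured by GFP fraction and black lines at group means (n = 4). Fabp1 to Fabp2 and Apoa4 to Apoa1 drop in the distal part in all fractions, and Mogat2 to Dgat1 lies lower with high GFP than without GFP in each part.

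Other genes of fat absorption were read from lists of related functions, none of which holds the 10 genes. In GFP-high against GFP-negative cells of the proximal small intestine, where 22.5% of all genes were called higher and 24.6% lower, 15 of 16 tested genes of chylomicron assembly and secretion were called lower and 0 higher, with a median of -1.79. P4hb, the partner subunit of Mttp, had -2.20 ± 0.14 (801 ± 49.7 against 3680 ± 610 CPM), the coat GTPase Sar1b -1.66 ± 0.14 and the cargo receptor Surf4 -1.56 ± 0.12. Of 13 genes of glyceride, phospholipid and sterol ester synthesis, 11 were lower and 2 higher (median -1.62). Agpat2 had -2.60 ± 0.23 and Lpcat3 -1.62 ± 0.14, whereas the cholesterol esterifying enzyme Soat1 had 3.24 ± 0.20 (261 ± 31.1 against 27.6 ± 4.14 CPM). Of 12 genes of uptake and lumenal lipid handling, 7 were lower and 3 higher (median -1.12), among them the fatty acid transport protein Slc27a4 (-3.23 ± 0.28) and the sterol exporter subunits Abcg5 (-2.73 ± 0.32) and Abcg8 (-2.30 ± 0.33). Of 7 genes of fatty acid activation and binding, 5 were lower and 1 higher (median -0.52), with the acyl-CoA synthetases Acsl5 at -2.75 ± 0.16 and Acsl3 at 1.15 ± 0.17. Adjusted p-values of these named genes were 2.05e-07 or lower by edgeR.

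In the same comparison 6 of 9 genes of lipid droplets and lipolysis were lower and 1 higher (median -0.92), among them Lipe, the hormone-sensitive lipase (-2.65 ± 0.22), and the droplet coat protein Plin3 (-1.94 ± 0.17). Of 14 transcription factors of lipid absorption 8 were lower and 1 higher (median -0.78). Maf had -3.70 ± 0.42, the oxysterol receptor Nr1h3 -1.41 ± 0.16, and Hnf4g had 100.4 ± 18.2 against 400.2 ± 149 CPM. Of 10 genes of cholesterol synthesis and uptake 7 were lower and 0 higher (median -0.50), with Hmgcs1, an early enzyme of sterol synthesis, at -1.14 ± 0.19.

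**Figure D5:**
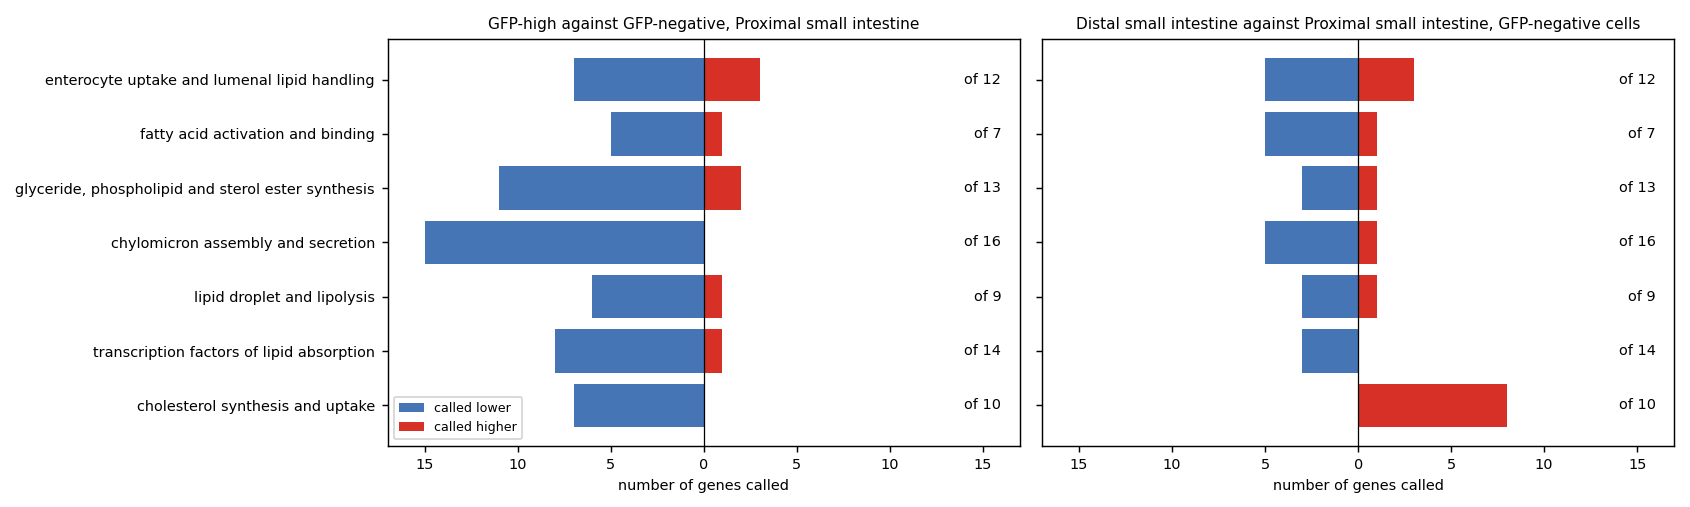
Number of genes called lower (left) and higher (right) in each list of related functions, with the number tested, for GFP-high against GFP-negative cells of the proximal small intestine and for distal against proximal small intestine of GFP-negative cells. In the fraction comparison 15 of 16 chylomicron genes were called lower, and along the gut 8 of 10 cholesterol genes were called higher.

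Between distal and proximal small intestine of GFP-negative cells, where 6.67% of all genes were called higher and 8.9% lower, 8 of 10 cholesterol genes were called higher and 0 lower, with a median of 0.63. Sqle, the squalene epoxidase, had 1.18 ± 0.17. Among uptake genes 5 of 12 were lower and 3 higher: Scarb1 had -3.73 ± 0.32 and Slc27a2 -2.34 ± 0.18, and Plb1, a brush border phospholipase, had 9.68 ± 0.55 (813 ± 137 against 0.969 ± 0.74 CPM). Of 7 activation genes 5 were lower and 1 higher, among them Acsl1 (-1.34 ± 0.17) and Acsl5 (-1.28 ± 0.15). Of 13 synthesis genes 3 were lower and 1 higher, and the other diglyceride acyltransferase gene, Dgat2, had -1.36 ± 0.29 (adjusted p = 0.00052). Of 16 chylomicron genes 5 were lower and 1 higher, with P4hb at -0.88 ± 0.13. Of 9 droplet genes 3 were lower and 1 higher, with Plin2 at -1.22 ± 0.15 and Cidec at -1.78 ± 0.53. Of 14 transcription factors 3 were lower and 0 higher: Pparg (-1.80 ± 0.20), Gata4 (-1.79 ± 0.41) and Creb3l3 (-1.74 ± 0.52).

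The 10 genes shared their pattern over the groups to different degrees. Over the 15 group means of log2 CPM, which share the libraries, Pearson's r between pairs of the 10 ran from 0.842 (Apoa4 with Fabp2) to 0.993 (Apoa1 with Npc1l1). Among 10854 protein-coding genes at 10 CPM or more in some group, those most like Mttp were G6pc (0.997), Smlr1 (0.997) and Hsd17b6 (0.995). Apoa1 and Npc1l1 each had the other among its nearest genes, and Pdzk1 was near both. Apoa4 was nearest to Apoc3 (0.988), Bst1 and Lct, Fabp1 to Adh6a (0.98), Cnpy1 and Creb3l3, and Fabp2 to Cyp4f14 (0.994), Akr1b7 and Abcg2. Cd36 was nearest to Aqp3 (0.992), Rab30 and Cnpy1, Dgat1 to Slc26a6 (0.996), Aldh9a1 and Tm6sf2, Mogat2 to Reg3a (0.997), Exoc3l4 and Gcnt4, and Apob to Slc5a4b (0.994), Exoc3l4 and Oasl2. These are descriptions over 15 points whose main contrast is small intestine against colon.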

How the data were processed

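The counts are those the authors deposited: whole-number counts per gene and library in a long table with the gene's length, for 60 libraries in 15 groups of 4. The submitters' processing notes name the mm10 build and the tools STAR, featureCounts of Subread, and edgeR; versions, annotation release and strandedness are not given in the sources used here. Genes passing edgeR's filterByExpr over the 15 groups (23360) were scaled by TMM and fitted with edgeR 4.0.16 (glmQLFit, glmQLFTest, R 4.3.3) in 1 model of group means, with Benjamini-Hochberg adjustment over all tested genes in each of 21 comparisons and a threshold of 0.05. Standard errors were taken as the log2 difference over the root of the F statistic. CPM uses TMM-scaled totals and RPKM the deposited lengths. The test was checked on simulated data for 1 comparison, GFP-high against GFP-negative cells of the proximal small intestine. Its libraries were drawn independently and low-count genes were given no change. That check therefore does not cover correlated libraries or the low counts of the colon. Alternatives were DESeq2 1.42.0, its size factors, the newer quasi-likelihood method, no filter, raw totals, only the groups compared, a replicate block and each library left out. The deposited batch column equals the replicate number in 60 of 60 libraries. Deviations of same-numbered libraries correlated at a mean of 0.168 over 420 pairs (58.8% above 0.1), those of other numbers at -0.0521. By comparison the mean ran from -0.201 (fractions of the proximal colon) to 0.64 (middle against proximal small intestine, GFP-negative cells). The main fit does not use this pairing, and the replicate block does. Pathway genes named are among up to 3 called genes with the smallest p in each list, in 2 comparisons. The 10 genes, the lists and the tests were chosen with earlier results of these data known. Of counts from 1 to 10, 77.2% were even, against 52.8% of counts from 1001 to 5000, for a cause that was not tested; floors cover counting error only. Some named genes of the cholesterol list are not reported here.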

Additional observations from a re-analysis of the deposited data

Results flagged for a closer look

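In groups of 4 libraries, Dixon's criterion (the gap of the end library to its neighbour over the range) marked 13 of 150 gene levels and 1 of 24 ratios, where chance marks about 1 in 20 groups. In the small intestine, Apoa4 stood at 361 CPM in GFP-negative replicate 4 of the distal part (others 112 to 130), at 635 in GFP-negative replicate 1 of the middle part (others 1122 to 1207) and at 244 in GFP-high replicate 3 of the middle part (others 152 to 163). Fabp1 stood at 120 CPM in GFP-negative replicate 3 of the distal part (others 39.9 to 53.4). GFP-intermediate replicate 1 of the distal part was high for Apoa1 (645 CPM, others 253 to 312) and for Mogat2 (83.4, others 27.7 to 36.5). The log2 ratio of Mttp to Apob was -1.57 in GFP-negative replicate 4 of the distal part (others -0.97 to -0.90).

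In the colon, Dgat1 stood at 20.4 CPM in GFP-negative replicate 4 (others 32.7 to 33.8) and at 29.6 in GFP-intermediate replicate 3 (the other 3 lower) of the proximal part. Apoa1 stood at 1.07 CPM in GFP-intermediate replicate 2 of the proximal colon (others 0.399 to 0.456), and Fabp1 at 0.644 in GFP-negative replicate 3 of the distal colon (others 0.175 to 0.237). Apoa4 had 0.121 CPM in GFP-high replicate 4 of the distal colon, Cd36 0.0771 in GFP-intermediate replicate 1 of the distal colon and 0.184 in GFP-high replicate 2 of the proximal colon, each beside 3 libraries at 0.

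The GFP-high to GFP-negative difference itself differed between colon and small intestine for 6 genes (edgeR, log2): Mttp 3.88, Mogat2 2.77, Fabp2 2.47, Apob 2.30, Dgat1 2.27 and Npc1l1 1.52.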

How the results depend on the processing

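No called value of the 10 genes changed direction. Some values did change sign, and these were called neither in the main fit nor under the alternative. The count of the 10 genes called changed as follows when the fit held just the 2 sides of a comparison: 3 for the fractions of the proximal colon, 4 for GFP-high against GFP-intermediate cells of the colon, 2 for distal against proximal colon in GFP-negative cells, and in GFP-high cells 3 for middle against proximal and 9 for distal against middle small intestine. For GFP-high against GFP-intermediate cells of the colon it was 1 with no filter and 5 by DESeq2. The newer quasi-likelihood method gave 1 for middle against proximal small intestine and 3 for distal against proximal colon, both in GFP-high cells, and in the distal colon it no longer called Fabp1 (0.0924) or Npc1l1 (0.146). With the replicate block, 1 gene was called between middle and proximal small intestine with high GFP, the calls of Apoa4 and Mttp given above were gained, and no other call of the 10 genes changed. The paired test of the ratios cannot pass the threshold with 4 pairs: the 12 called ratios had an adjusted p of 0.1562 with the block, at unchanged log2 differences. With one library left out the exact test cannot pass it either, and the differences kept their direction. In the distal against the proximal small intestine they were, with the block and then by library left out, -3.05 (-3.42 to -2.81) for Apoa4 to Apoa1, -5.62 (-6.04 to -5.36) for Fabp1 to Fabp2, -1.30 (-1.41 to -1.15) for Mttp to Apob and -0.29 (-0.33 to -0.23) for Mogat2 to Dgat1 in GFP-negative cells. In GFP-high cells they were -2.81 (-3.01 to -2.65), -4.24 (-4.76 to -3.93) and -1.21 (-1.31 to -1.17) for Apoa4 to Apoa1, Fabp1 to Fabp2 and Mttp to Apob. Between fractions they were -1.55 (-1.67 to -1.41), -1.10 (-1.18 to -1.02) and -0.94 (-0.99 to -0.83) for Mogat2 to Dgat1 from proximal to distal, -1.13 (-1.45 to -0.98) for Fabp1 to Fabp2 in the middle part and -0.54 (-0.65 to -0.40) for Mttp to Apob in the proximal part. DESeq2's size factors shifted the median of all genes by -0.10, -0.08 and -0.13 in the fractions of the small intestine, from proximal to distal.

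Leaving out libraries gave 1 to 7 called genes in the proximal and 2 to 7 in the distal colon fractions, 1 to 6 and 0 to 4 for GFP-high against GFP-intermediate cells of small intestine and colon, 1 to 3 for GFP-intermediate against GFP-negative cells of the colon, 3 to 5 for distal against proximal colon in either fraction and 0 to 1 for the difference of fractions along the small intestine. Shares over all genes are not given for the counts of this section. These counts therefore do not separate a change in the absorption genes from a change over all genes. Transcripts at 0 counts in some colonic libraries (Apoa1, Apoa4, Cd36, Fabp1, Npc1l1) are limited by depth.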
